A study of Mus musculus with 2 samples.

Results

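Mcl1 and 7 other genes of the mitochondrial route to apoptosis are described here by the Ago2 reads on their RNA: the survival genes Mcl1, Bcl2l1 and Bcl2, the effectors Bax and Bak1, the BH3-only genes Bcl2l11 (Bim) and Bbc3 (Puma), and Casp2. Their entries were found by the gene symbol in the name field, which gave 988 of 1641948 predicted microRNA sites, 24 of 6211 enriched Ago2 clusters and 8 of 15271 genes. Ago2, the Argonaute protein that microRNAs guide to messenger RNA, was mapped by iCLIP, which sequences the RNA fragments crosslinked to a protein. Both lines were clonal mouse embryonic stem cells whose only Argonaute protein was doxycycline-inducible human Ago2. The line named TT-FHAgo2 carried FLAG and HA tags on Ago2, and the line named TT-Ago2 carried Ago2 without a tag as the control for the purification. Both were kept in 0.1 µg/mL doxycycline, were raised to 2.5 µg/mL for 24 h, and went through serial FLAG and HA immunoprecipitation. Each line gave 1 library from 1 clone, so spread between cultures could not be measured, and no test between the lines was possible. The sites rested on 789000 reads of the tagged library. The untagged library enters only through the authors' enrichment value of each cluster, and its scaling to the tagged library is unknown.

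All 8 embryonic stem cell markers examined were in the site table, between 40.3 FPKM for Klf4 and 1655 FPKM for Dppa5a (FPKM being fragments scaled to transcript length and library size). Of 5 fibroblast markers 2 were listed, Vim at 45 FPKM and Thy1 at 1.89 FPKM, while Col1a1, Col1a2 and Postn were not. Listed markers of primitive endoderm, trophectoderm, neural cells and mesoderm lay between 0.165 and 9.85 FPKM. These are levels of bulk cells, in which the share of cells with a transcript and the amount per cell cannot be told apart.

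In the mitochondrial route to apoptosis, BH3-only proteins neutralise the survival proteins of the BCL2 family or activate Bax and Bak, which open the outer mitochondrial membrane and release cytochrome c. Mouse embryonic stem cells express large amounts of microRNAs of the miR-290 and miR-17 families, whose seeds, like that of miR-302, share a core that pairs with GCACTT in target RNA. Bcl2l11 is a well-studied target of the miR-17-92 cluster, which holds members of the miR-17, miR-19 and miR-92 families.

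Of the 8 genes, 3 carried enriched Ago2 clusters: Mcl1 with 17, Casp2 with 5 and Bcl2l11 with 2. The share over all genes of the site table was 17.1%. A cluster is a stretch where the authors' binomial p for tagged over untagged reads was under 0.05, which compares the reads of 2 libraries. The sites under these clusters are printed first, since the results turn on them. They are written as the RNA strand reads, 5′ to 3′ with T for U, and capitals mark a match of 7 or 8 bases to the authors' listed microRNA seeds, or the core GCACTT. The table lists 50 seeds as 7mers, with 8mers that add a final A and 6mers inside them. Lower case letters come from overlapping entries. All coordinates are mm9, and every site shown lies on the plus strand in a 3′ UTR. The first set shows the sites under Mcl1 clusters, in order along the transcript.
Mcl1, chr3:95464755-95464762, 8 reads: GTGCAATA
Mcl1, chr3:95465608-95465622, 8 reads: tatatgcaGAGCCTG
Mcl1, chr3:95465811-95465817, 8 reads: ACACAAG
Mcl1, chr3:95465868-95465874, 50 reads: TTGCCAA
Mcl1, chr3:95465937-95465949, 7 reads at the capitals: TGTTATGctccca
Mcl1, chr3:95466565-95466577, 49 reads: AGCACTTTAtgta
Mcl1, chr3:95466645-95466651, 14 reads: TGTTTAC
Mcl1, chr3:95466655-95466662, 14 reads: GAGCCTGA

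The Casp2 set shows that the core GCACTT recurs along 1 transcript.
Casp2, chr6:42231286-42231295, 14 reads: tGCACTTaca
Casp2, chr6:42231299-42231305, 14 reads: TACTTGA
Casp2, chr6:42231557-42231563, 8 reads: AGCACTT
Casp2, chr6:42231902-42231915, 13 reads: cttgaccATGCTGC
Casp2, chr6:42231987-42231994, 57 reads: GGCACTTT
Casp2, chr6:42232078-42232085, 26 reads: GGCACTTA

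The Bcl2l11 set begins with a site outside its clusters, shown because it has the same 9 letters as the capitals of the 49-read Mcl1 site.
Bcl2l11, chr2:127986187-127986195, 3 reads and no cluster: AGCACTTTA
Bcl2l11, chr2:127988143-127988152, 13 reads: TTTGCACTGA
Bcl2l11, chr2:127988185-127988192, 18 reads: GTGCAATA

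The microRNAs whose seeds pair with these sites are given from RefSeq (build GRCm38.p6), 1 or 2 for each seed, with bases 2 to 8 in capitals. The first group shares the seed bases AAGUGC, the partner of the core GCACTT.
mmu-miR-294-3p, site AGCACTT: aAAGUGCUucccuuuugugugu
mmu-miR-302b-3p, site AGCACTT: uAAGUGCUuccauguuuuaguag
mmu-miR-290a-3p, site GGCACTT: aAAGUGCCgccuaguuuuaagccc
mmu-miR-291b-3p, site TGCACTT: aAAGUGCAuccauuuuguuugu
mmu-miR-17-5p, site GCACTTT: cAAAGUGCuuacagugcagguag
mmu-miR-20a-5p, site GCACTTT: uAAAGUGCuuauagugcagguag

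The other seeds do not hold that core.
mmu-miR-92a-3p, site GTGCAAT: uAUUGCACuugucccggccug
mmu-miR-25-3p, site GTGCAAT: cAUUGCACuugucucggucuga
mmu-miR-19b-3p, site TTTGCAC: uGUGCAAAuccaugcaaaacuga
mmu-miR-148a-3p, site TGCACTG: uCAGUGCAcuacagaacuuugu
mmu-miR-182-5p, site TTGCCAA: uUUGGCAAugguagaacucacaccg
mmu-miR-30a-5p, site TGTTTAC: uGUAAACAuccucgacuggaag
mmu-miR-484, site GAGCCTG: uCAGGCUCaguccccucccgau
mmu-miR-26a-5p, site TACTTGA: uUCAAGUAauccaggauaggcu
mmu-miR-103-3p, site ATGCTGC: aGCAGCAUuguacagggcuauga
A seed match names microRNAs that could pair there. Which microRNA was bound was not measured, and the listed 7mers ACACAAG and TGTTATG are named by their letters only.

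Mcl1, which encodes a short-lived survival protein that holds Bak and BH3-only proteins in check, was the most heavily covered of these genes. Its 17 clusters held 240 tagged reads, against 4 untagged reads. By number of clusters and by tagged reads it ranked 3 among 15271 genes, of which 0.262% had 10 or more clusters. Among the 388 genes between 100 and 200 FPKM, where Mcl1 lies at 149 FPKM, it ranked 1 by both measures, and 5 by its most covered site. In 16 of the 17 clusters the untagged number was 0, beside 85.6% of all clusters. Of the 17 clusters, 9 overlapped another one. Counting each overlapping group once, by its largest cluster, left 161 tagged reads in 11 separate stretches, a form chosen after seeing the data.

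The Mcl1 clusters lay at several places along the 3′ UTR, which held 14 of them, with 2 in coding sequence and 1 in the 5′ UTR. Of all clusters, 61.3% were annotated to 3′ UTRs, 16% to coding sequence and 1.59% to 5′ UTRs. The Mcl1 clusters had between 5 and 43 tagged reads, with a median of 8. Clusters with 40 or more tagged reads made up 1.29% of all clusters, and Mcl1 had 2 of them.

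The first of the 2 covered chr3:95465838-95465929 with 43 tagged reads against 0 untagged reads, 14.3-fold against a floor of 3 counts per cluster. It lay over TTGCCAA, a match to the miR-182 seed, with 50 reads at the match. Reads at a match can exceed those of its cluster. The cluster number is the authors' own, and reads at a match were recovered from their coverage values.

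The second covered chr3:95466531-95466596, also with 43 tagged reads against 0 untagged reads. It lay over AGCACTTTA, a match to both the miR-294 and miR-17 seeds, with 49 reads. That match had a phastCons score of 1, the top of this 0 to 1 scale of conservation between species. A neighbouring cluster at chr3:95466502-95466552 had 35 tagged reads against 0 untagged reads. It overlapped the second one and held no listed match.

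The remaining Mcl1 clusters held 14 or fewer tagged reads. The match GTGCAATA to the miR-92 and miR-25 seed had 8 reads and a phastCons score of 0.999. The cluster at chr3:95466631-95466678, over the miR-30 match TGTTTAC and the miR-484 match GAGCCTGA, had 14 tagged reads against 4 untagged reads, a ratio of 3.5 (exact counting interval 1.1 to 14.6). It was the 1 Mcl1 cluster with untagged reads. The 5′ UTR cluster had 5 tagged reads against 0 untagged reads, and the coding clusters had 11 and 7 tagged reads against 0 untagged reads each. Neither coding cluster overlapped a listed match, but this outcome was fixed in advance. Of the 74 sites used for Mcl1, 73 lie in the 3′ UTR and 1 in the 5′ UTR, so none lies in coding sequence.

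**Figure D1:**
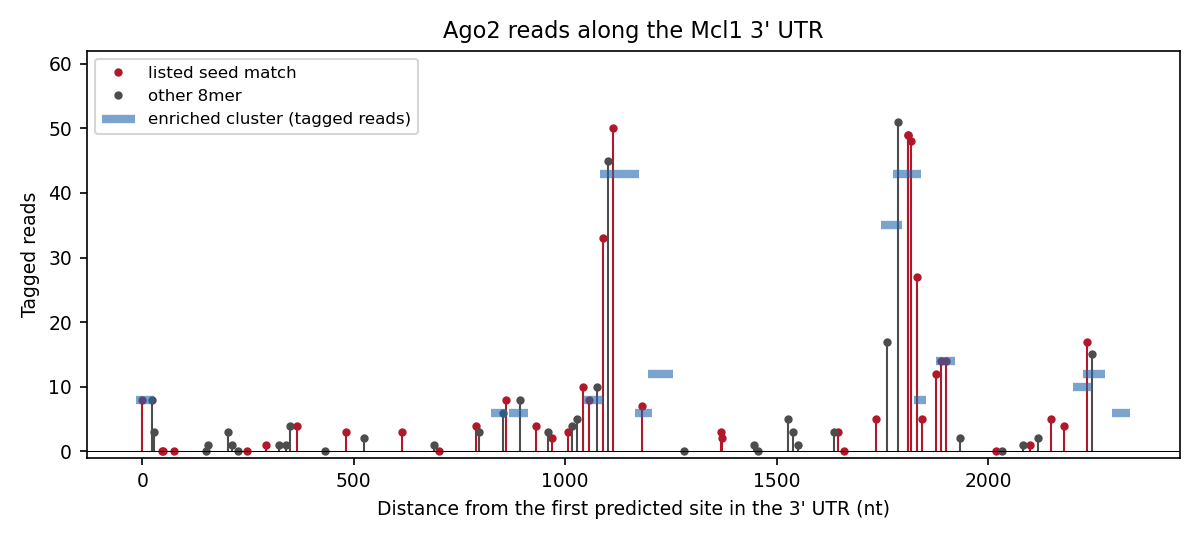
Tagged reads (y axis) at each predicted site of the Mcl1 3′ UTR against the distance in nt from its first predicted site (x axis), with listed seed matches in red, other 8mers in grey, and clusters as blue bars at their tagged reads. The sites of 49 to 51 reads fall in 2 places, and sites with fewer reads fill most of the rest.

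Seed matches and other 8mers of Mcl1 held reads about equally often. The table holds further 8mers that extend none of the 50 listed seeds, and these served as the comparison, although 824 of the 966 match bases 2 to 8 of some mature mouse microRNA. A read was present at 32 of 39 listed matches of Mcl1 (82.1%, exact 95% interval 66.5 to 92.5), and at 29 of 35 other 8mers (82.9%, 66.4 to 93.4). The ratio of the shares was 0.99 (0.802 to 1.22). Over all genes the shares were 10.7% for listed matches and 7.22% for other 8mers. In 3′ UTRs alone, where 73 of the 74 Mcl1 sites lie, they were 16.5% and 11.5%. In genes of 100 FPKM or more, 29% of listed matches had a read. All intervals cover counting error only. Sites of 1 gene share reads and are not replicates, and PCR copies are not independent molecules.

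The longer seed matches of Mcl1 all held reads. All 14 listed 7mers and 8mers of Mcl1 had reads, between 3 and 50 with a median of 8, while 18 of the 25 listed 6mers had one (72%). For listed 7mers and 8mers alone, the ratio of their share over that of other 8mers was 1.21. With at least 2 reads asked for, the ratio of all listed matches over other 8mers was 1.28, and with overlap with a cluster it was 1.7. Of the 17 clusters, 8 lay over a listed 7mer or 8mer and 12 over any listed match. Those 8 were all among the 14 clusters in the 3′ UTR, so 8 of 14 is the like comparison for the next value. Among all genes, 46.3% of usable 3′ UTR clusters (those not across a splice junction and at most 200 nt wide) lay over a listed 7mer or 8mer. Among the 8 clusters of Mcl1 that overlap no other, 4 lay over such a match, a subset chosen after seeing the data. These counts ask for an overlap of 1 nt. The clusters at chr3:95465580-95465618 and chr3:95465622-95465667 touched the same GAGCCTG only at its ends. With the whole match inside the cluster, 6 of the 17 were left.

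Casp2, a caspase activated in the PIDDosome complex, had strong clusters at a low transcript level of 6.81 FPKM. Its 5 clusters held 92 tagged reads, against 1 untagged read, and all lay in the 3′ UTR within 848 nt. It ranked 7 by tagged reads in clusters among the 2058 genes between 5 and 10 FPKM, of which 20.1% had a cluster. By its most covered site it ranked 2 among them. Genes with 5 or more clusters were 1.51% of all genes. Over all genes, 0.668% had a site with 40 or more reads.

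All 5 Casp2 clusters lay over a listed 7mer or 8mer, and 4 of the 5 over a match holding GCACTT, beside 24.5% of usable 3′ UTR clusters of all genes. The largest, chr6:42231899-42232043, had 42 tagged reads against 1 untagged read. Their ratio of 42 rests on a single untagged read, with an exact counting interval of 7.14 to 1698, and the authors' log2 enrichment was 4.43. It is not on the same footing as the folds against the floor. Its match GGCACTTT to the miR-290a and miR-17 seeds had 57 reads, the most at any site of the 8 genes. The cluster at chr6:42232050-42232122 had 24 tagged reads against 0 untagged reads, 8-fold against the floor of 3 counts, over GGCACTTA with 26 reads.

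The other 3 Casp2 clusters were smaller. The one at chr6:42231275-42231330 had 12 tagged reads against 0 untagged reads, over a core GCACTT and the miR-26 match TACTTGA. The clusters at chr6:42231543-42231587, over AGCACTT, and at chr6:42231874-42231913, over the miR-103 match ATGCTGC, had 8 and 6 tagged reads against 0 untagged reads each. The smallest overlapped the largest. Every one of the 4 core positions in Casp2 thus lay in a cluster. Reads were present at 28 of 38 listed matches of Casp2 (73.7%, 56.9 to 86.6) and at 10 of 24 other 8mers (41.7%, 22.1 to 63.4), and the 2 intervals overlap. In genes between 1 and 10 FPKM, 10% of listed matches had a read.

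**Figure D2:**
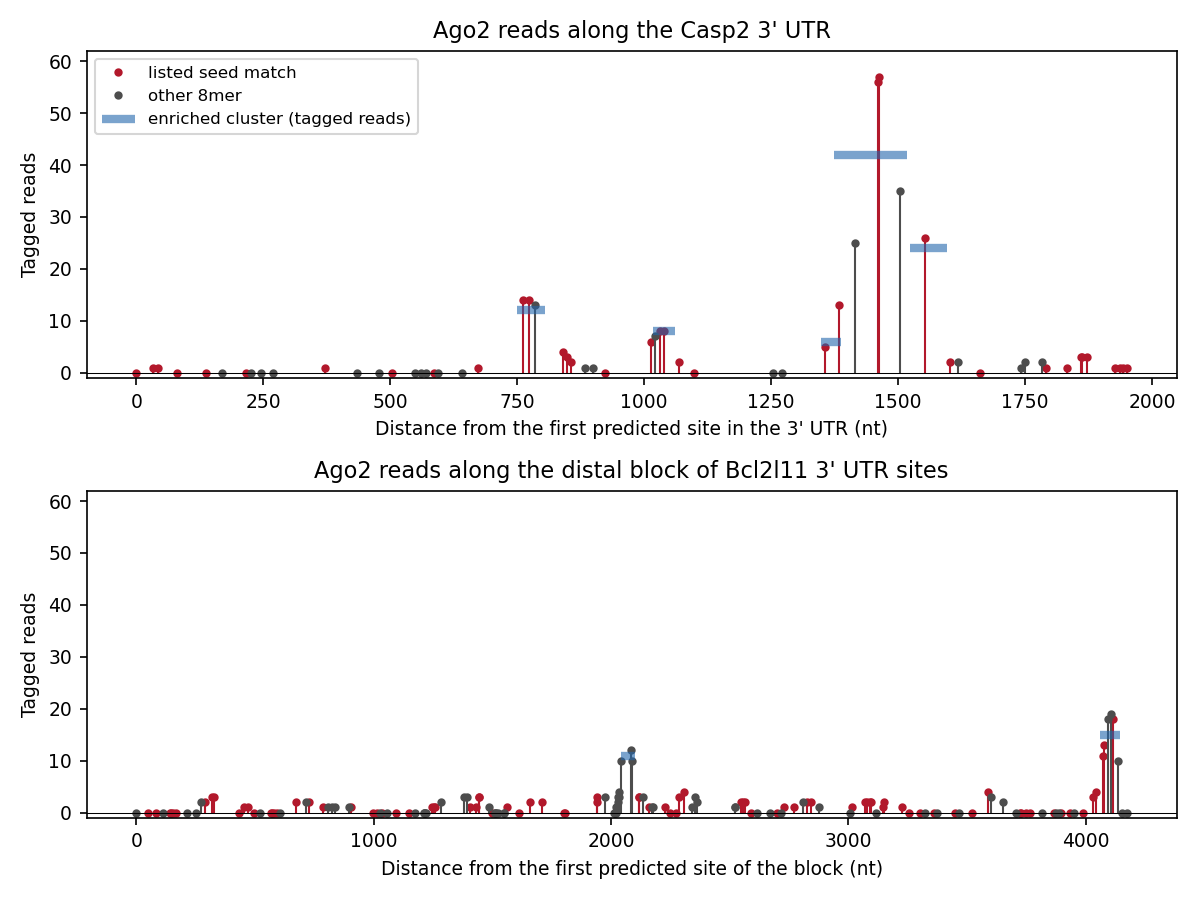
Tagged reads (y axes) at predicted sites along the Casp2 3′ UTR (top) and along the distal block of Bcl2l11 3′ UTR sites (bottom) against distance in nt from the first site (x axes), with listed seed matches in red, other 8mers in grey, and clusters as blue bars at their tagged reads. Casp2 reached 57 reads at GGCACTTT, and the highest Bcl2l11 site had 19 reads, an other 8mer in the last cluster.

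Bcl2l11, the BH3-only gene also called Bim, had 2 clusters with 26 tagged reads against 0 untagged reads, at a highest listed level of 4.29 FPKM. Of genes between 3 and 5 FPKM, 17.5% had a cluster, and Bcl2l11 ranked 42 of 1263 by tagged reads. The cluster at chr2:127988128-127988211 had 15 tagged reads against 0 untagged reads, 5-fold against the floor of 3 counts. It held 3 listed matches of 7 or 8 letters. TTTGCAC to the miR-19 seed had 11 reads, the overlapping TGCACTGA to the miR-148 seed had 13 reads, and GTGCAATA to the miR-92 seed had 18 reads. All 3 had phastCons scores of 1. The other cluster, chr2:127986111-127986169, had 11 tagged reads against 0 untagged reads, with no listed match.

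Reads on Bcl2l11 fell mostly in 1 of 2 separate blocks of 3′ UTR sites. The proximal block, which belongs to an isoform of 1.03 FPKM, had reads at 5 of 61 sites (8.2%), with at most 2 reads. The distal block, listed for 4 isoforms with site values of 3.68 to 4.29 FPKM, had reads at 85 of 161 sites (52.8%), with at most 19 reads. Those values appear to be sums over isoforms, so they are not levels of a single isoform. In all, reads were present at 52 of 122 listed matches (42.6%, 33.7 to 51.9) and at 39 of 107 other 8mers (36.4%, 27.4 to 46.3).

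Reads at the core GCACTT were many in Casp2 and few in Bcl2l11. Bcl2l11 had it at 6 positions, and none lay in a cluster. The 3 in the proximal block, at 1.03 FPKM, had no read. The 3 in the distal block, at 3.69 to 3.89 FPKM, had 1, 3 and 3 reads. Casp2 had it at 4 positions, with 8, 14, 26 and 57 reads. Mcl1 had it once, with 49 reads. Bcl2 had it at 2 positions with no read, and the 4 remaining genes had none. The authors' log2 coverage equalled log2 of the scaled reads minus 0.24 times log2 FPKM, plus a constant. It thus allows only in part for transcript level and is not reads per FPKM. It was 3.82 at GGCACTTT in Casp2, above 99.9% of entries with a read. At AGCACTTTA it was 2.54 in Mcl1, above 99.2% of entries, and -0.21 in Bcl2l11, above 87.2% of entries. The same 9 letters, with a phastCons score of 1 in both genes, thus carried 49 reads in Mcl1 at 149 FPKM and 3 reads in Bcl2l11 at 3.69 FPKM. Reads divided by FPKM in full would place Bcl2l11 above Mcl1 here, the reverse of the log2 coverage. With 3 reads in Bcl2l11, neither order can be relied on.

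Of the listed 3′ UTR matches with 10 or more reads, those of Bcl2l11 were conserved and those of Casp2 were not. The median phastCons score was 1 over 3 such matches of Bcl2l11, 0.701 over 11 of Mcl1 and 0.00335 over 6 of Casp2, beside 0.815 over 2280 in all genes. With or without reads, listed 3′ UTR matches had medians of 0.0208 in Bcl2l11, 0.374 in Mcl1, 0.0063 in Casp2 and 0.031 in all genes. Low scores were thus common to the Casp2 matches as a whole. The 3 of Bcl2l11 all lie in the same 84-nt cluster, where TTTGCAC and TGCACTGA overlap and share reads. The highest score among the 6 of Casp2 was 0.0709. At a score of 0.9 or more, a limit chosen after seeing the data, Casp2 had 7 listed matches, all with reads and none with over 3. Bcl2l11 had 23 such matches, 17 of them with reads and up to 18 reads, while its 94 matches under 0.9 had at most 4 reads.

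**Figure D3:**
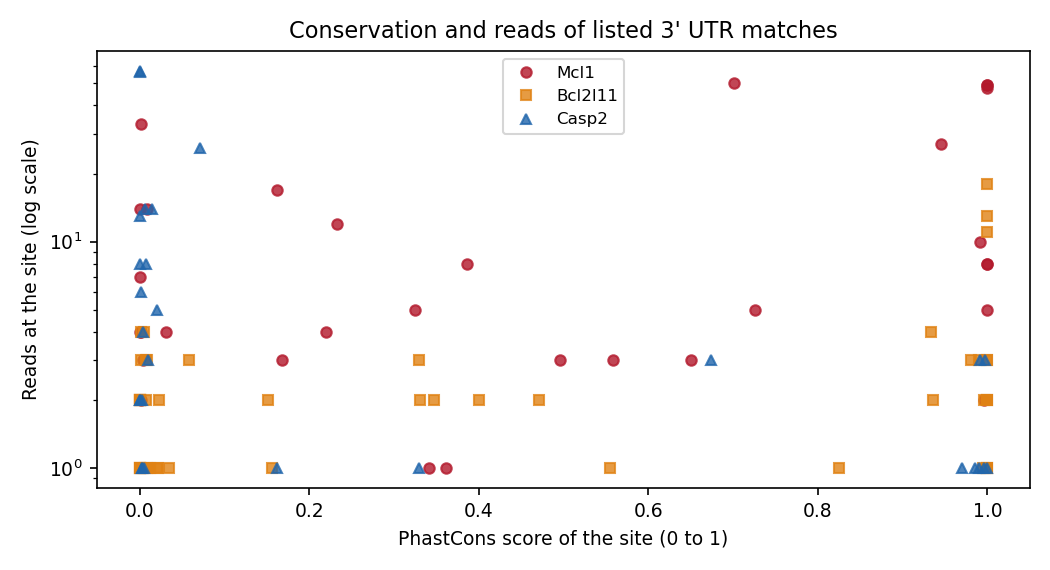
Tagged reads on a log axis (y) against the phastCons score from 0 to 1 (x) for listed 3′ UTR matches with at least 1 read, with Mcl1 as red circles, Bcl2l11 as orange squares and Casp2 as blue triangles. Casp2 sites of 57 and 26 reads lie near a score of 0, Bcl2l11 sites of 11 to 18 reads lie at 1, and Mcl1 has highly covered sites at several scores.

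Bax and Bak1, which encode the proteins that form the pores in the outer mitochondrial membrane, had no cluster although both were well expressed. Bax stood at 155 FPKM, next to Mcl1 at 149 FPKM, and 35.1% of genes between 100 and 200 FPKM had a cluster. The predicted 3′ UTR sites of Bax spanned 149 nt and numbered 5, against 2255 nt and 73 sites in Mcl1. None of the 5 had a read, and with so few sites the exact interval for its 4 listed matches reaches 60.2%. In Bax coding sequence, 6 of 9 listed matches had reads (66.7%, 29.9 to 92.5), at most 3, the highest at GGCAGCT. Other 8mers of Bax coding sequence had reads in 2 of 7 cases (28.6%, 3.67 to 71). Over genes of every level, 11.5% of listed matches in coding sequence had a read. In genes of 100 FPKM or more the share was 29% over all regions. Between 100 and 200 FPKM, genes with a cluster had a median of 25 sites in the 3′ UTR and genes without one had 11.5. Of genes between 10 and 100 FPKM, which include Bak1 and Bcl2l1, 28.2% had a cluster and 20% of listed matches had a read. Bak1 stood at 51.9 FPKM, with reads at 10 of 37 listed matches (27%, 13.8 to 44.1) and at 5 of 39 other 8mers (12.8%, 4.3 to 27.4), and at most 4 reads at a site. Its most covered sites lay in the 5′ UTR, at CTGAGCCA and TTTGCAC.

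Bcl2l1, which encodes the survival protein Bcl-xL, had no cluster at 21 FPKM. Reads were present at 13 of 52 listed matches (25%, 14 to 38.9) and 6 of 31 other 8mers (19.4%, 7.45 to 37.5), with at most 4 reads, and just 1 of its 11 listed 7mers had one. Bbc3, the p53-induced BH3-only gene also called Puma, had no cluster at 9.88 FPKM, and 15.5% of genes between 1 and 10 FPKM had one. Its listed matches had reads in 9 of 25 cases (36%, 18 to 57.5) and its other 8mers in 12 of 21 cases (57.1%, 34 to 78.2), with at most 3 reads. All 9 of those listed matches had phastCons scores of at least 0.996, but the median over all 21 listed 3′ UTR matches was 0.999. At 0.9 or more, a limit chosen after seeing the data, 9 of 15 had reads, and the 6 under 0.9 had none. The other 8mers CCGTCCCA and CAGGGGCA had 3 reads each at scores of 0.65 and 0.62. Bcl2, the founding survival gene of the family, was near the 0.1 FPKM limit of the table at 0.112 FPKM and had no cluster, beside 4.46% of genes between 0.1 and 1 FPKM with one. It had reads at 5 of 261 sites, 1 read each, so its Ago2 coverage could not be judged at this depth.

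**Figure D4:**
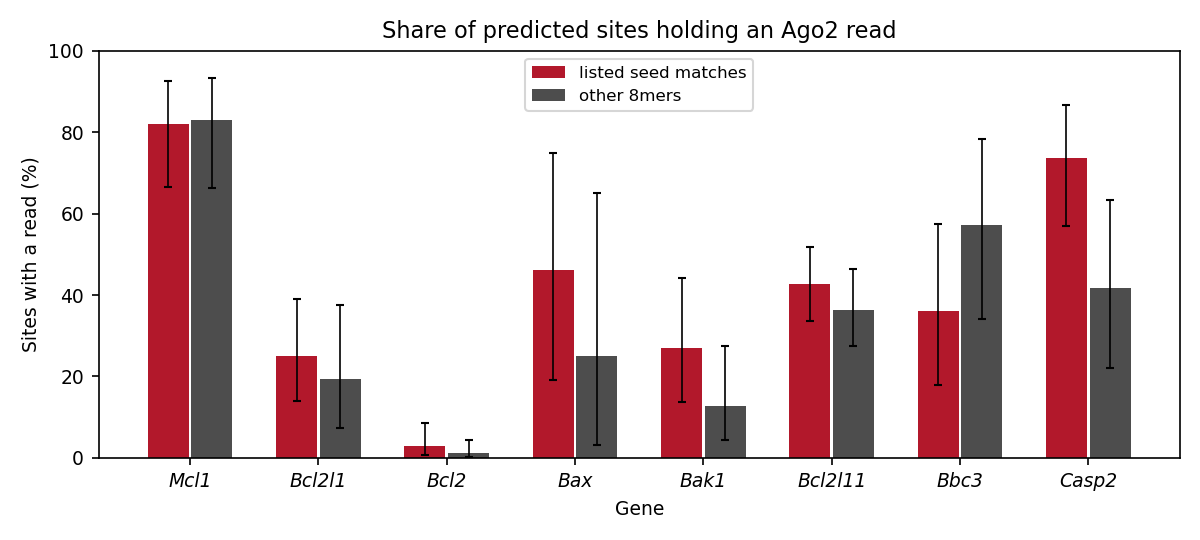
Share of predicted sites with at least 1 tagged read (y axis, percent) for listed seed matches (red) and other 8mers (grey) in each gene (x axis), with exact 95% intervals for counting error as error bars. Mcl1 is high in both sets at 82.1% and 82.9%, Bcl2 is near 0, and the intervals of the 2 sets overlap in every gene.

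Over the 8 genes together, 153 of 427 listed matches had a read (35.8%, 31.3 to 40.6), against 105 of 425 other 8mers (24.7%, 20.7 to 29.1). Bcl2, at 0.112 FPKM, supplied 101 of the listed matches and 160 of the other 8mers. Without sites listed under 1 FPKM the share of listed matches was 46%.

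**Figure D5:**
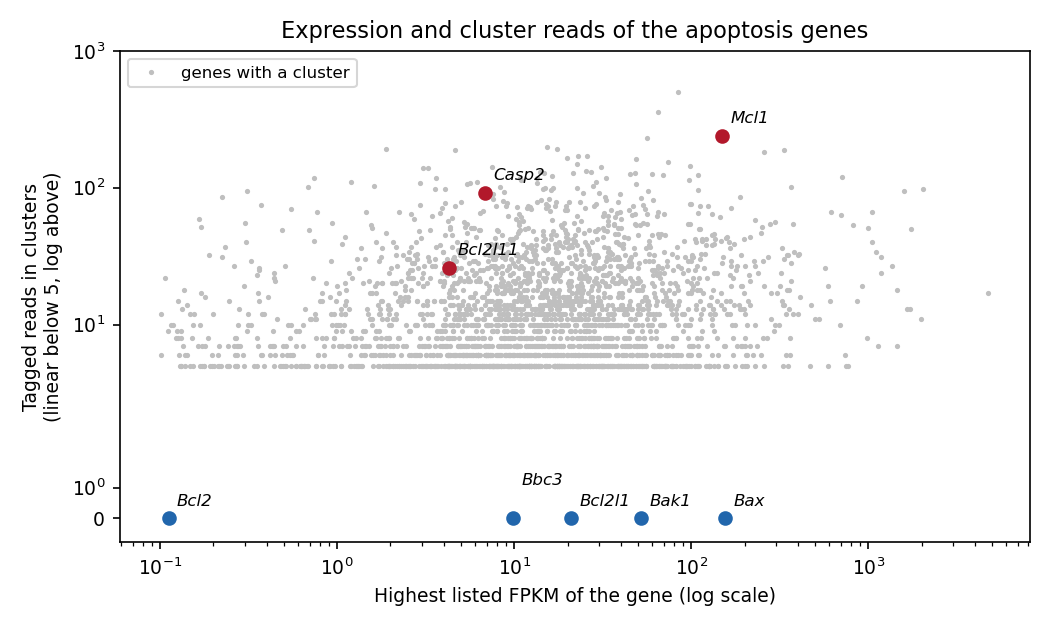
Tagged reads in clusters (y axis, log scale above 5 and linear below) against the highest listed FPKM of the gene (x axis, log scale), with the genes with clusters in red, those without in blue, and all genes with a cluster in grey. Mcl1 at 240 reads lies near the top, Bax at a similar FPKM has 0, and Casp2 has 92 at 6.81 FPKM.

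The authors list, per cluster, the positions with most crosslink events, and 20 of the 24 clusters had one. For the 13 clusters over a listed 7mer or 8mer that list a position, the median position was -4 nt from the first base of the nearest match, negative meaning before it, with an interquartile range of -10 to -1. Over 801 plus-strand clusters of all genes it was -2 nt, with an interquartile range of -9 to 3. Only clusters that overlap a match entered, so short distances are partly fixed by that choice. In the largest Casp2 cluster the positions were -1 nt from GGCACTT and 11 nt from GCACTTT, the overlapping matches that make up GGCACTTT, with 7 events at the peak. Around AGCACTTTA in Mcl1 they were -18 and -15 nt with 5 events, and around TTGCCAA -20 nt (position 11 of its cluster) with 8 events, the highest number in these genes. Position 11 of the cluster was listed in 9 of the 20 clusters that list any position and in 967 of 2346 such plus-strand clusters of all genes, and whether counting starts at 0 or 1 is not stated, so distances may be off by 1 nt.

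Genes around these 8 in the apoptosis pathway had clusters about as often as other genes. Of 39 listed genes, 34 were in the site table and 7 had a cluster (20.6%, 8.7 to 37.9), beside 17.1% of all genes. None of the 10 other BCL2 family and BH3 genes found had one, for which the exact interval reaches 30.8%. Clusters were present in 3 of the 4 genes that act on Mcl1 protein turnover (75%, 19.4 to 99.4). Usp9x, the deubiquitinase that stabilises Mcl1 protein, had 4 clusters in coding sequence with 47 tagged reads against 2 untagged reads. Huwe1, a ubiquitin ligase for Mcl1, had 2 clusters with 14 tagged reads against 1 untagged read. The third, Fbxw7, part of another ubiquitin ligase for Mcl1, had 1 with 5 tagged reads against 0 untagged reads, and is named after its values were seen.

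By group, clusters were present in 1 of 8 apoptosome and caspase genes, 1 of 5 inhibitors of apoptosis, 0 of 2 PIDDosome partners, 0 of 3 death receptor genes and 2 of 2 p53 axis genes (exact interval for the last 15.8 to 100%). The exact interval of each of these 5 groups includes the 17.1% of all genes. That of the 4 Mcl1 protein turnover genes, 19.4 to 99.4%, starts above it but includes the 28.2% of genes between 10 and 100 FPKM. Huwe1 at 44.2 FPKM and Usp9x at 10.5 FPKM lie in that range. With lists chosen after earlier results were known, whether this group differs from other genes was not tested. The groups were not otherwise set against genes of like FPKM or number of sites. Mdm2, the ligase that degrades p53, had 2 clusters with 15 tagged reads against 0 untagged reads. Trp53, which encodes p53, had 1 in coding sequence with 7 against 0. Xiap, an inhibitor of caspases, had 2 with 42 tagged reads against 1 untagged read and a site of 51 reads. Casp9, the initiator caspase of the apoptosome, had 1 with 6 tagged reads against 0 untagged reads. Among the more highly expressed genes without a cluster were Birc5 (survivin) at 121 FPKM, the mitochondrial BH3 gene Bnip3 at 26.5 FPKM and Diablo, whose protein counters the inhibitors of apoptosis, at 25.5 FPKM.

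The genes most like Mcl1 in the seeds under their clusters shared fewer than all of them. Clusters of Mcl1 lay over 8 different listed 7mers. C77080 shared 4 of them, with 4 clusters and 32 tagged reads. Aebp2, Sik1, Ankrd52 and Tob1 shared 3 each, with 14, 10, 15 and 11 clusters. All 5 shared AGCACTT and GCACTTT with Mcl1, and Aebp2 also shared TTGCCAA. Likeness was counted as shared 7mers in the 1 tagged library, with ties ordered by tagged reads.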

How the data were processed

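Per the submitters' processing notes, the reads went through Bowtie and TopHat with the builds mm9 and NCBIM37; the cluster caller, tool versions and the RNA sample behind the FPKM are not given in the sources. Coverage per site is in rpm and isoform expression in FPKM, both made by the authors. The FPKM listed at a site appears to be summed over the isoforms that hold it. All 1641948 rpm values (100%) were whole multiples of 1.27 within 0.001, so whole read counts of a library of 789000 were recovered from the deposited values. With 1 library per line no count test could be made on them. The deposited log2 coverage equalled log2 rpm minus 0.24 times log2 FPKM with a constant of -1.69, within 0.01 at 152190 of 152190 entries. PhastCons is a conservation score per the file headers. The height of each cluster is a signal per the file headers, counted in whole reads. The deposited enrichment text gives the tagged reads, their log2 enrichment relative to the untagged line and a binomial p-value, by which the authors kept clusters under 0.05. That p compares the reads of 2 libraries and is not used as a result. Untagged reads were computed from the log2 value, taken as tagged reads plus 1 over untagged reads plus 1, which a whole number matched within 0.01 in 6211 of 6211 clusters. Folds against 0 use a floor of 3 counts per cluster. With the scaling of the untagged library unknown, they are not lower bounds.

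Sites were made distinct per gene, position and sequence, which removed 21954 repeats. Shorter matches inside longer ones (37269) and other 8mers overlapping a listed match (170269) were left out, which left 1412456 sites. For overlap with clusters (at least 1 nt, same strand), 5993 clusters served, without 216 that span a junction and 2 that exceed 200 nt. Shares have exact Clopper-Pearson 95% intervals. Scripts ran in Python 3.11.15 with pandas 2.3.3, scipy 1.17.1 and matplotlib 3.10.9 and were tested on simulated data. MicroRNAs were matched to RefSeq by bases 2 to 8, which named 44 of the 50 listed 7mers.

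The genes and lists were chosen with earlier results of these data known. Named are all 8 genes with their clusters and the listed 7mers and 8mers in them, pathway genes with most clusters or, without one, with the highest FPKM, and the 5 genes most like Mcl1. One pathway gene that this rule names is not reported here. Alternatives tried were a stricter p, merged or widened clusters, at least 2 reads or cluster overlap in place of 1 read, subsets of regions, matches and isoforms, and 2 forms added after seeing the data.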

Additional observations from a re-analysis of the deposited data

How the results depend on the processing

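Of 46 alternatives to the reported values, 33 left them within the limits of counting error or 1.5 times, and 13 moved them. Some of the 33 could not have moved, so the tally does not measure robustness. An adjusted p under 0.05 was asked of clusters already kept under 0.05, so every cluster passed. Mcl1 has 1 isoform, at 149 FPKM, and no repeated entries, so limits on isoforms or repeats left its shares unchanged. A limit to 7mers and 8mers cannot change the other 8mers. In all alternatives run, 3 of the 8 genes had a cluster. Mcl1 had 17 clusters as deposited, 11 with the authors' p under 0.01 and 8 with clusters closer than 20 nt merged. The share of Mcl1 listed matches with support was 82.1%, against 43.6% with overlap with a cluster and 100% for 7mers and 8mers alone. For other 8mers of Mcl1 it was 82.9%, against 60% with at least 2 reads and 25.7% with cluster overlap. The ratio of the 2 shares was 0.99, against 1.28 with at least 2 reads and 1.7 with cluster overlap. Over the 8 genes the share of listed matches was 35.8%, against 23.9% with at least 2 reads and 7.03% with cluster overlap. It was 47.2% for 7mers and 8mers alone and 46% for sites listed at 1 FPKM or more. Of the 17 Mcl1 clusters, 8 lay over a listed 7mer or 8mer, against 4 of the 8 clusters that overlap no other, a form added after seeing the data. The cause was not tested, apart from the sites or clusters that each alternative removes by construction. No paired analysis was possible because each line gave 1 library and the labels hold no replicate numbers. Bcl2 is limited by its low level, with 0 or 1 read per site, and the Bax 3′ UTR by its 5 sites.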

Other observations

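Several clusters of these genes held other 8mers with as many reads as their listed matches. These 8mers belong to none of the 50 listed seeds, and the microRNA names below are seed matches in RefSeq only. In Mcl1, ATGTTTAA at chr3:95466542-95466549 had 51 reads, the most at any Mcl1 site, and lies under both overlapping clusters next to AGCACTTTA, with 49 reads. It matches miR-30f. GTCTACTA at chr3:95465856-95465863, just before TTGCCAA, had 45 reads against 50 at TTGCCAA, and matches miR-411-5p. In Casp2, CTCCAAGA at chr6:42232029-42232036 had 35 reads and TGAGGGCA at chr6:42231941-42231948 had 25 reads, on either side of GGCACTTT with 57 reads.

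In Bcl2l11, the cluster without a listed match held ACCAAAGA at chr2:127986111-127986118 with 10 reads and a phastCons score of 0.98, a match to miR-9-5p, and GACCTCCA at chr2:127986152-127986159 with 12 reads and a score of 0.153. The other Bcl2l11 cluster held ACAGGGTA with 18 reads, a match to miR-10a-5p and miR-10b-5p, and CCACTGTA with 19 reads, a match to miR-216a-3p, beside the 18 reads of GTGCAATA. Both 8mers had phastCons scores of 1. Sites this close share reads, so their numbers do not say which of them was bound.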
